A study of Mus musculus with 2 samples.

Results

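The genes described here are 10 genes of the white fat cell, measured in mouse dorsolateral prostate. They are the hormone genes Adipoq, Lep and Retn, the secreted protease gene Cfd and the lipid droplet genes Plin1 and Cidec. The others are the fatty acid genes Fabp4 and Lpl, the carbonic anhydrase gene Car3 and the transcription factor gene Pparg. All 10 were found through the RefSeq accessions of the array's non-control probes. These gave 14 probes for the 10 genes, out of 41174 probes and 18952 gene symbols in all. Of these probes 13, standing for 9 genes, were detected, meaning that on both arrays 1 pool or both gave a signal well above background. Lep was the gene not detected.

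Dorsolateral prostates were taken from FVB/N mice aged 6 months, and total RNA of 6 animals was pooled for each genotype. One pool was wild type and the other was ARR2PB-miR32 transgenic, in which a microRNA is expressed from ARR2PB, an androgen-responsive promoter built from that of probasin, which drives genes in the prostate epithelium. Array 1 paired the transgenic pool in Cy3 with the wild-type pool in Cy5, and array 2 exchanged the dyes. Since a single pool of each genotype was measured, the arrays count as 1 replicate, genotype could not be tested, and every ± below is an SD over the 2 arrays that covers technical error only. The Cy5 signal was weak on array 2, where it stood well above background at 21.1% of spots, against 42.1% on array 1 and 57.0% and 58.3% for Cy3, and it was this channel that carried the transgenic pool. The epithelial keratin gene Krt5 and the prostate products Pbsn, Tgm4 and Msmb were all detected, as was each of the 10 luminal and 4 basal markers listed for the prostate.

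White fat cells store triglyceride in a single large droplet and act as an endocrine organ. Pparg and the C/EBP factors switch on the program of the mature fat cell, lipoprotein lipase frees fatty acids from circulating lipoproteins, intracellular carriers such as FABP4 move them, and perilipin 1 and CIDEC coat and enlarge the droplet. The mouse prostate lies next to fat depots. In a tissue RNA pool, fewer fat cells and less RNA per fat cell cannot be told apart.

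The small RNA that separates the groups is shown first, with its seed (bases 2 to 8) in capitals, as RefSeq gives the mature mouse sequence.
mmu-miR-32-5p: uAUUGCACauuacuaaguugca

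Promoter sequences were on hand for 7 of the 10 genes (10 start sites, RefSeq, build GRCm38.p6), with Car3, Fabp4 and Lpl the genes without an entry. The 250 bases before the start are printed, 5′ to 3′ on the gene's strand, for the members below that were lower in the transgenic pool and for Plin1, which lay close to that limit. Capitals mark TTNNGCAA, letters bound by C/EBP factors, and CCAAT, each read on both strands.
Adipoq, chr16:23146286-23146535, plus strand: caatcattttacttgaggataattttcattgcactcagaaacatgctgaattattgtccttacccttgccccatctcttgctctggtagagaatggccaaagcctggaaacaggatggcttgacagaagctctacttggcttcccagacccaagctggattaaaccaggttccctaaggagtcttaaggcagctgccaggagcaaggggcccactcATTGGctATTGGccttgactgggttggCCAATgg
Cfd, chr10:79890603-79890852, plus strand: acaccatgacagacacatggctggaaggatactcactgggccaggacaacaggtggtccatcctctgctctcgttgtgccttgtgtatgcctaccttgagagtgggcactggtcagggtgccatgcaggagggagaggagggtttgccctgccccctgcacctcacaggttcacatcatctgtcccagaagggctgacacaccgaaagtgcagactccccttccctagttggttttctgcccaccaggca
Retn, chr8:3655520-3655769, plus strand: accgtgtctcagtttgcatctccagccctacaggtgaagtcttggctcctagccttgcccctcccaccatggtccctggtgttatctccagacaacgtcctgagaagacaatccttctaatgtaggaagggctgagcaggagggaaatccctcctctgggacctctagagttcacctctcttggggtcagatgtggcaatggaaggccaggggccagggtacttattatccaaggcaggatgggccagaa
Cidec at the lower start, chr6:113434765-113435014, minus strand: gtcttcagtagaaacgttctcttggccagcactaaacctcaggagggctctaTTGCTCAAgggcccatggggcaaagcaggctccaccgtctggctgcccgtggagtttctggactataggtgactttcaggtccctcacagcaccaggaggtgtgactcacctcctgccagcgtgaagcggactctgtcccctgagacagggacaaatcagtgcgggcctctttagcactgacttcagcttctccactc
Cidec at the upper start, chr6:113435761-113436010, minus strand: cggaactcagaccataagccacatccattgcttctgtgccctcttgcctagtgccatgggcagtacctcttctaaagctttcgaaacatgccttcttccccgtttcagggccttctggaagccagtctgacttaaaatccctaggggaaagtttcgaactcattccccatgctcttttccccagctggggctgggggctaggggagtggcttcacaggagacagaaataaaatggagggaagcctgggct
Plin1, chr7:79732777-79733026, minus strand: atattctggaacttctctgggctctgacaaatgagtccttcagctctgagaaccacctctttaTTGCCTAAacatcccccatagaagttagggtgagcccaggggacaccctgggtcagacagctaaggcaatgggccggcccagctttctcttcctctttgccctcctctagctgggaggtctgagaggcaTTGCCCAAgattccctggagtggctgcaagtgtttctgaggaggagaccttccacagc

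Adipoq carried 3 CCAAT boxes, from 34 to 3 bases before its start, and no TTNNGCAA. Plin1 carried 2 copies of TTNNGCAA, from 187 to 180 and from 58 to 51 bases upstream, and the lower of the Cidec starts carried 1, from 198 to 191 bases upstream. Cfd, Retn and the upper Cidec start held neither set of letters in this window. Lep held the palindrome TTGCGCAA from 55 to 48 bases upstream, and of the 3 Pparg starts 1 held TTNNGCAA and 2 held CCAAT. In all, TTNNGCAA was found before 4 of the 10 start sites, against 9.56% of 32851 promoters of the same length, and CCAAT before 3 of 10, against 33.8%. The windows are few and a match of letters is not a measured binding site.

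Of the 9 detected members 6 were lower in the transgenic pool by 1.5-fold or more on both arrays, none was higher, and 3 were neither. The 6 were Cfd, Fabp4, Car3, Adipoq, Cidec and Retn, and all but Retn also passed at 2-fold. Among all 10435 detected genes, 1.30% were lower and 0.910% higher by the 1.5-fold rule, and 0.355% were lower at 2-fold. Detection itself favoured genes high in the wild-type pool: 5 of the 9 members passed through the wild-type pool, their transgenic signal on array 2 not standing well above background, as did 41.9% of all detected genes, so the count of members is a description only. Of the 4 members well above background in both pools on both arrays (Fabp4, Cidec, Lpl and Pparg), Fabp4 and Cidec were lower, where 1.24% of 6133 genes so measured were.

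**Figure D1:**
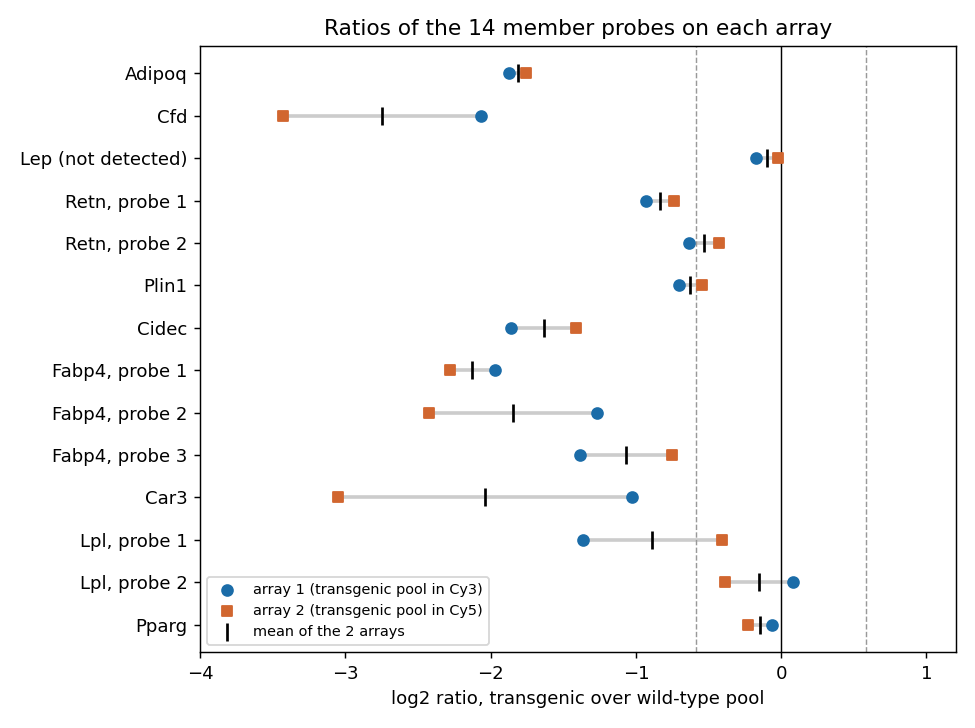
Log2 ratio of the transgenic over the wild-type pool for each of the 14 member probes, on array 1 (circles) and array 2 (squares), with a tick at the mean; probe 1 of a gene is the one used for it, and dashed lines mark 1.5-fold. Cfd lies lowest at −2.75, and Pparg and the undetected Lep lie next to 0.

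Adipoq encodes adiponectin, a hormone made by fat cells that raises insulin sensitivity. Its normalized log2 signal was 9.18 and 9.39 in the wild-type pool on arrays 1 and 2, and 7.31 and 7.64 in the transgenic pool. Both transgenic values were below both wild-type values. The log2 ratio was −1.87 on array 1 and −1.75 on array 2, a mean of −1.81 ± 0.08. On array 1, where both pools were well above background, this is 3.66-fold lower. Its spot read 924 above local background in the wild-type pool on array 2 and 17.5 in the transgenic pool, which was not well above background there. The array 2 ratio of Adipoq moved with the processing. It was −1.29 without background subtraction and −3.03 with the log ratios of the scanner software. The small SD of Adipoq therefore does not give its precision. Median centring gave −3.12 on array 2, but it also moved the median of all detected genes, to −0.57 over the 2 arrays.

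Cfd encodes adipsin (complement factor D), a serine protease of the alternative complement pathway that fat cells secrete. Its mean ratio was −2.75 ± 0.96, the lowest of the members in the setting used, while with the log ratios of the scanner software Car3 (−3.05) lay below Cfd (−3.01). The wild-type signals were 11.08 and 11.45 and the transgenic signals 9.01 and 8.02, again without overlap. The arrays differed in size, with −2.07 on array 1 and −3.43 on array 2, where the transgenic spot read 28.0 above local background and was not well above it. On array 1, where both pools were well above background, Cfd was 4.19-fold lower.

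Retn encodes resistin, a hormone of mouse fat cells that opposes insulin. Its brighter probe had signals of 7.34 and 7.47 in the wild-type pool and 6.40 and 6.74 in the transgenic pool, giving −0.93 and −0.74 and a mean of −0.83 ± 0.14 (1.78-fold lower). The other Retn probe was at −0.64 and −0.43, so that on array 2 it missed the 1.5-fold limit. The mean over both probes (−0.68) did not pass the rule, and the call therefore rests on 1 probe. The transgenic pool gave 1 and 7 intensity units above local background on array 2 at these probes.

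Lep encodes leptin, the satiety hormone of fat. It was printed in 10 spots on each array, and none of the spots used stood well above background in either pool. Its log2 ratios of −0.17 and −0.02 are therefore ratios of background, and no fold is given.

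Cidec encodes a protein that lets lipid droplets fuse and grow in white fat. Its wild-type signals were 9.39 and 9.70 and its transgenic signals 7.54 and 8.29. The pools did not overlap, and all 4 readings were well above background. The ratios were −1.86 and −1.41, with a mean of −1.63 ± 0.32, or 3.10-fold lower.

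Plin1 encodes perilipin 1, the protein that coats the droplet of fat cells and controls access of lipases. Its signals were low, 7.02 and 7.05 in the wild-type pool and 6.31 and 6.50 in the transgenic pool, and they did not overlap. The ratios of −0.71 and −0.54 (mean −0.63 ± 0.11) missed the rule on array 2, where the transgenic spot equalled its local background. Such a ratio depends on the constant of 50 added to each signal. With 16 in its place Plin1 was at −1.01 and passed, as it did with the log ratios of the scanner software (−1.59).

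**Figure D2:**
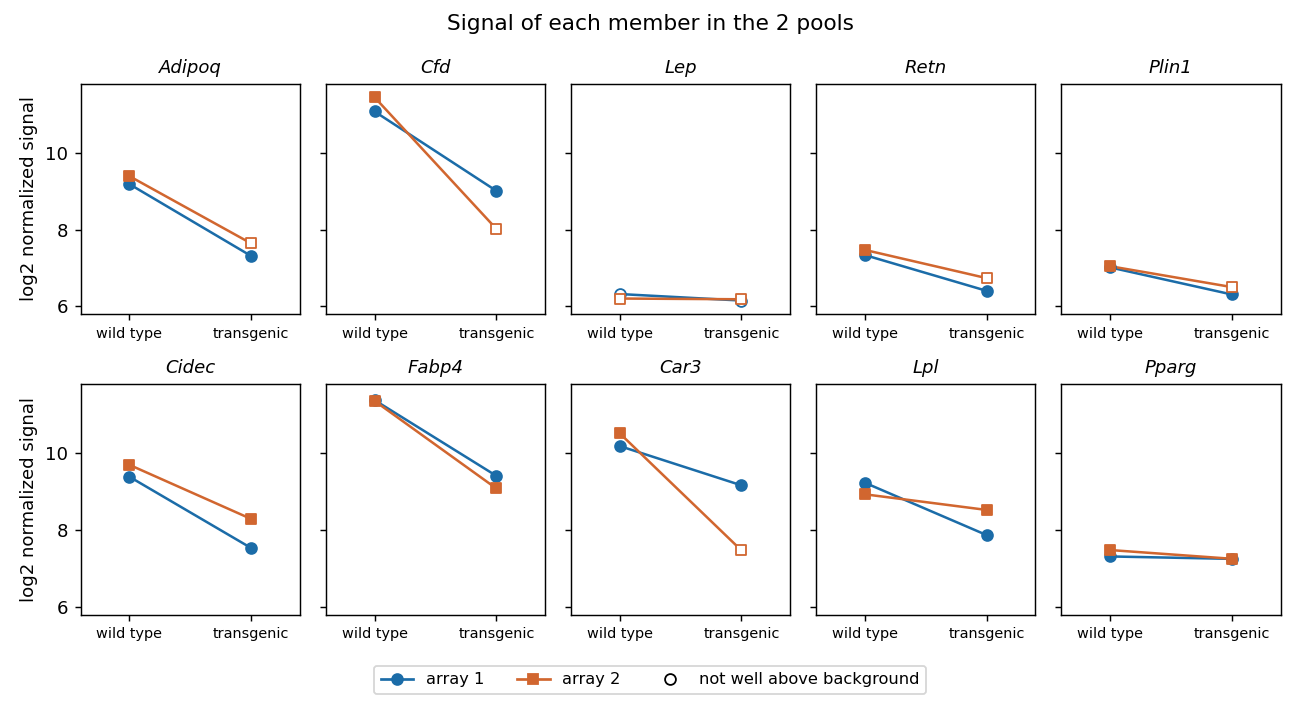
Normalized log2 signal (loess within arrays and quantile scaling of mean intensity between them) of each member in the wild-type and the transgenic pool, on array 1 (circles) and array 2 (squares), with open symbols where the probe was not well above background. Cfd goes from 11.08 and 11.45 to 9.01 and 8.02, while the Pparg lines are nearly flat.

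Fabp4 encodes the fatty acid carrier aP2 of fat cells, which macrophages and capillary endothelium also make. It was measured by 3 probes, all well above background in the wild-type pool, and each was lower by more than 1.5-fold on both arrays. The brightest had signals of 11.39 and 11.37 in the wild-type pool and 9.42 and 9.09 in the transgenic pool, a mean ratio of −2.13 ± 0.22 or 4.37-fold lower. The other probes were at −1.27 and −2.42 (mean −1.84 ± 0.82) and at −1.38 and −0.75 (mean −1.07 ± 0.45). The direction was therefore the same for all 3 probes. On array 2 the transgenic spot of the last probe read 27.5 above local background and was not well above it. The ratio of −0.75 there has no exact size.

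Lpl encodes lipoprotein lipase, which is made by fat cells, muscle and macrophages and acts on the capillary wall. Its brighter probe was at −1.36 on array 1 and −0.41 on array 2 (mean −0.89 ± 0.68), and so missed the rule. Its signals were 9.24 and 8.94 in the wild-type pool and 7.87 and 8.53 in the transgenic pool, without overlap. The dimmer probe was at 0.08 and −0.39 and its pools overlapped. The brighter probe passed the rule with the log ratios of the scanner software (−1.25). The authors' deposited value table (−1.26) holds the same log ratios and is not a separate measurement. With median centring, which also moved the median of all detected genes below 0, Lpl passed at −1.62.

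Car3 encodes carbonic anhydrase 3, an abundant cytosolic protein of mouse fat cells and slow skeletal muscle. Its wild-type signals of 10.19 and 10.53 lay above its transgenic signals of 9.17 and 7.47. The ratio was −1.02 on array 1 (2.03-fold lower) and −3.05 on array 2, a mean of −2.04 ± 1.43. The arrays thus gave the same direction, and array 1 alone measured both pools. On array 2 the transgenic spot read 3 above local background against 2171 for the wild-type pool, whereas on array 1 the readings were 617 and 1668.5. The array 2 ratio of Car3 was −4.70 with the log ratios of the scanner software and gives no exact size.

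Pparg encodes the nuclear receptor that drives formation of fat cells and is also present in epithelia and macrophages. It was the detected member nearest to 0, at −0.06 and −0.23 (mean −0.15 ± 0.12). The 9 spots used on array 1 spread from −0.47 to 0.23 and the 10 on array 2 from −0.88 to 0.15, so the mean is smaller than the spread among spots (SD 0.23 and 0.37). Pparg did not pass the rule under any processing tried, and against the median of all detected genes after median centring it stood at 0.03.

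Placed together, the 9 detected members were each below 0 on both arrays, as were 28.0% of all detected genes. The transgenic signals of each lay below the wild-type signals, a separation shown by 20.1% of all detected genes. The median ratio of the members was −1.63 (−1.36 and −1.41 on arrays 1 and 2), against −0.06 for all detected genes, and 5 members were among the 100 lowest genes. Summed over the 9 genes on a linear scale, the normalized signal was 8320 and 9392 in the wild-type pool and 2670 and 2214 in the transgenic pool.

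**Figure D3:**
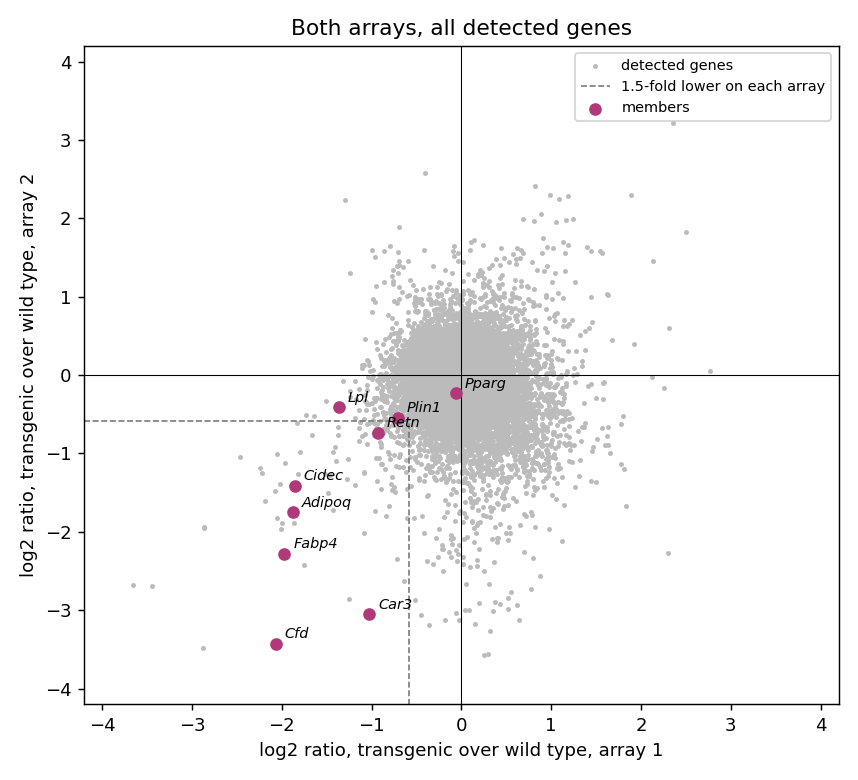
Log2 ratio of the transgenic over the wild-type pool on array 1 (horizontal) and array 2 (vertical) for all detected genes (grey; 4 lie outside the range shown) and the 9 detected members (coloured), with dashed lines at the 1.5-fold limit. Adipoq, Cidec, Fabp4, Car3, Cfd and Retn lie inside the lower left corner, Lpl and Plin1 above its edge on array 2, and Pparg near the origin.

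Members were left out when the 5 detected genes whose pair of array ratios lay nearest to that of Adipoq were sought. They were Lcn2, an iron-sequestering defence protein that fat cells also secrete (distance 0.13 in log2 units over the 2 arrays), Pigr, the epithelial carrier of IgA (0.18), Jchain, which joins IgA chains (0.19), the MHC class II gene H2-Aa (0.25) and the acute phase gene Saa2 (0.34). The nearest member was Cidec, also at a distance of 0.34. The next was Fabp4 at 0.54, and Pparg was the farthest at 2.37.

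The 6 lower members kept that direction in each of the processings shown in the plot of members by processing, and Retn alone of them lost its call, with the mean over probes and at 2-fold. Median centring, which moved the median of all detected genes to −0.57, placed Cfd 3.03, Fabp4 2.45, Car3 2.25, Adipoq 1.94, Cidec 1.84 and Lpl 1.05 log2 units below that median, and Retn by 0.55 and Plin1 by 0.20, both short of 1.5-fold. Of all 10435 detected genes, 136 were lower and 95 higher in the setting used, 554 and 2 with median centring, and 627 and 247 with the log ratios of the scanner software. The authors' deposited value table covered only 6127 of these genes, of which 119 were lower and 178 higher. Of the members the deposited table gave values for Cidec, Fabp4 and Lpl, and all 3 were lower there.

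**Figure D4:**
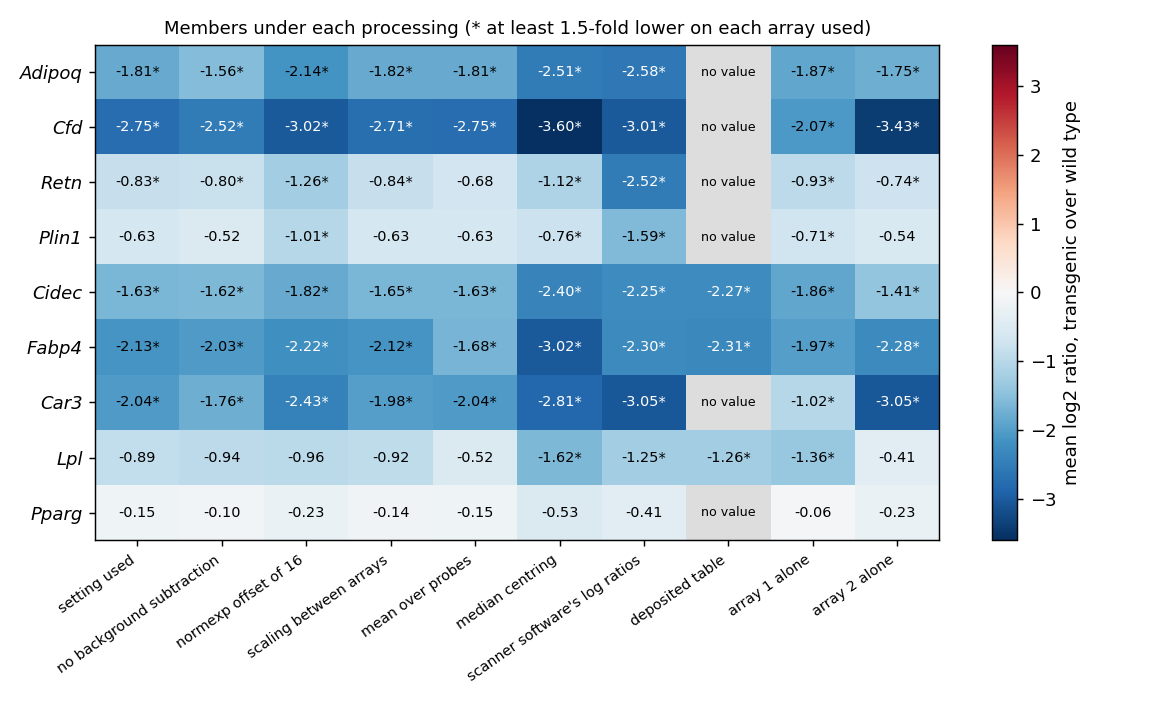
Mean log2 ratio of the 9 detected members (rows) under the setting used, 7 other processings and each array alone (columns), with a star where the gene was 1.5-fold or more lower on each array used and grey where the deposited table gave no value. Adipoq, Cfd, Cidec, Fabp4 and Car3 carry a star in every column with a value, and Pparg in none.

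The median of other genes of the white fat cell program lay closer to 0 than that of the members. Members and lists were chosen with earlier results of these data known, so this difference is a description only. Of 81 other genes of white fat cells, 61 were detected, 3 were lower, none was higher and 58 were neither, with a median of −0.19. The 3 lower genes made up 4.92% of those detected, against 1.30% of all genes. Of the 61, 52.5% were detected through the wild-type pool, 2 of the 3 lower genes among them, against 41.9% of all detected genes. With the log ratios of the scanner software 11 were lower and 1 higher, where 6.01% of all detected genes were lower and 2.37% higher.

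Of 14 detected genes of the lipid droplet and lipolysis, 1 was lower: Hilpda, a droplet protein that inhibits the lipase ATGL, at −1.03 and −0.61 (mean −0.82 ± 0.30). Its second probe was at −0.49 and −1.35. The lipolysis genes Lipe and Pnpla2, named after their values were seen, were at −0.27 ± 0.16 and −0.08 ± 0.40, and Plin4, a perilipin of white fat, at −0.15 ± 0.03. The transgenic signal of Lipe cleared background on 1 array only, and the log ratios of the scanner software gave 0.15 and −1.11 for it. The median ratio of these 14 genes was −0.23.

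Of 20 detected genes of uptake and lipid synthesis, 1 was lower: Thrsp (Spot 14), a lipogenic gene of fat and liver, at −0.94 and −1.35 (mean −1.14 ± 0.29), and its transgenic signal cleared background on array 1 alone. The median was −0.25. The lowest of those that did not pass were Acsl1, which activates long-chain fatty acids, at −0.11 and −2.16 (mean −1.13 ± 1.45), and the desaturase gene Scd1, at −1.17 and −0.30 (mean −0.73 ± 0.61). Fasn, the fatty acid synthase gene, was at −0.13 ± 0.14 and Slc2a4, the insulin-responsive glucose transporter gene, at −0.08 ± 0.21. Cd36, a fatty acid transporter, was at −0.30 ± 0.02. Its transgenic signal cleared background on 1 array only, and the log ratios of the scanner software gave −1.15 and −0.97. The small SD of Cd36 thus does not give its precision. The 5 genes named here besides Thrsp were chosen after their values were seen.

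None of 8 detected transcription factor genes of adipogenesis passed the rule in either direction, and their median was −0.34. The lowest were Klf5, at −0.38 and −1.54 (mean −0.96 ± 0.83), and Cebpd, an early C/EBP factor, at −1.06 and −0.45 (mean −0.75 ± 0.43). Cebpa, the C/EBP factor of mature fat cells, was at −0.68 and 0.01 (mean −0.34 ± 0.49). These 3 were named after their values were seen. With the log ratios of the scanner software these 3 of the 8 were lower, against 6.01% of all detected genes. Among 19 detected secreted factors, receptors and other markers 1 was lower, Rbp4, the retinol carrier that fat and liver secrete, at −0.75 and −1.02 (mean −0.88 ± 0.19), its transgenic signal clearing background on 1 array, and the median was −0.08. The adiponectin receptor genes Adipor1 and Adipor2, also named afterwards, were at 0.01 ± 1.15 and −0.08 ± 0.78, opposite in sign between the arrays.

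Markers of other cells differed in how far they moved with the members. Of 5 brown fat markers detected (Elovl3, Dio2, Prdm16, Cpt1b and Zic1 were not), Ucp1, Cidea and Cox8b were lower, where 1.30% of all genes were. The other 2 passed in neither direction, with Cox7a1 at 0.10 and −0.68 and Ppargc1a above 0 on both arrays, at 0.19 and 0.17. All 5 were detected through the wild-type pool, with the transgenic signal short of the background limit on 1 array, so the count is a description. Cox8b was at −1.39 ± 0.58 and Cidea at −1.30 ± 0.04. The summed signal of the 5 was 1168 and 1233 in the wild-type pool and 665 and 699 in the transgenic pool. These genes mark brown or beige fat cells and not the white fat cell.

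Macrophage and myeloid markers, whose cells can also make Fabp4 and Lpl, were lower for 4 of 12 detected (Cd74, Lyz1, C1qc and Mrc1). Of all detected genes 1.30% were lower. The other 8 markers passed in neither direction, Adgre1, Csf1r and Lyz2 among them. All 12 means were below 0, as were 59.4% of those of all detected genes, and the median was −0.61. Of the 12, 7 were detected through the wild-type pool, Lyz1 and Mrc1 among them, so these counts too are a description. Cd74 was at −2.09 ± 0.47 and Lyz1 at −1.57 ± 0.21. The summed signal was 4191 and 5884 in the wild-type pool and 2068 and 2537 in the transgenic pool. Cd74 weighs most in these sums, with the highest log2 signal of the 12 (10.28 and 11.30 in the wild-type pool, 8.53 and 8.88 in the transgenic pool). None of 10 detected endothelial markers passed, with sums of 1443 and 1533 against 1428 and 1398 and a median of −0.04. Rgcc, a gene of endothelial cells, was at −0.51 ± 0.07 and Pecam1 at 0.19 ± 0.33.

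None of 12 precursor and fibroblast markers passed, and their sums overlapped between pools (7571 and 12198 against 12545 and 5419). Col3a1 was at −0.97 ± 1.26 and Lum at −0.69 ± 0.55. Of 11 skeletal muscle markers, cells that also make Car3, 7 were not detected and none of the other 4 passed. Acta1 was at −0.38 ± 0.10, Ckm at −0.34 ± 0.42, Myh1 at 0.04 ± 0.26 and Mylpf at 0.28 ± 0.06. Their sums were 1541 and 1803 in the wild-type pool and 1341 and 1382 in the transgenic pool. Of 10 luminal markers Spink1 (−6.29 ± 0.23), Msmb (−0.86 ± 0.37) and Hoxb13 were lower, and the sums overlapped (441968 and 376388 against 313118 and 501470). Of the 10 luminal means 6 were below 0, and the highest were Tgm4 at 0.70 ± 0.64 and Pbsn at 0.54 ± 1.21. None of 4 basal markers passed, with Krt15 at −0.42 ± 0.24, Krt14 at −0.25 ± 0.35, Krt5 at 0.06 ± 0.76 and Trp63 at 0.18 ± 0.49. The basal sums were 4608 and 4869 in the wild-type pool against 4030 and 3901. The part of the brown fat, macrophage and other cells in the values of the 10 genes was not tested.

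**Figure D5:**
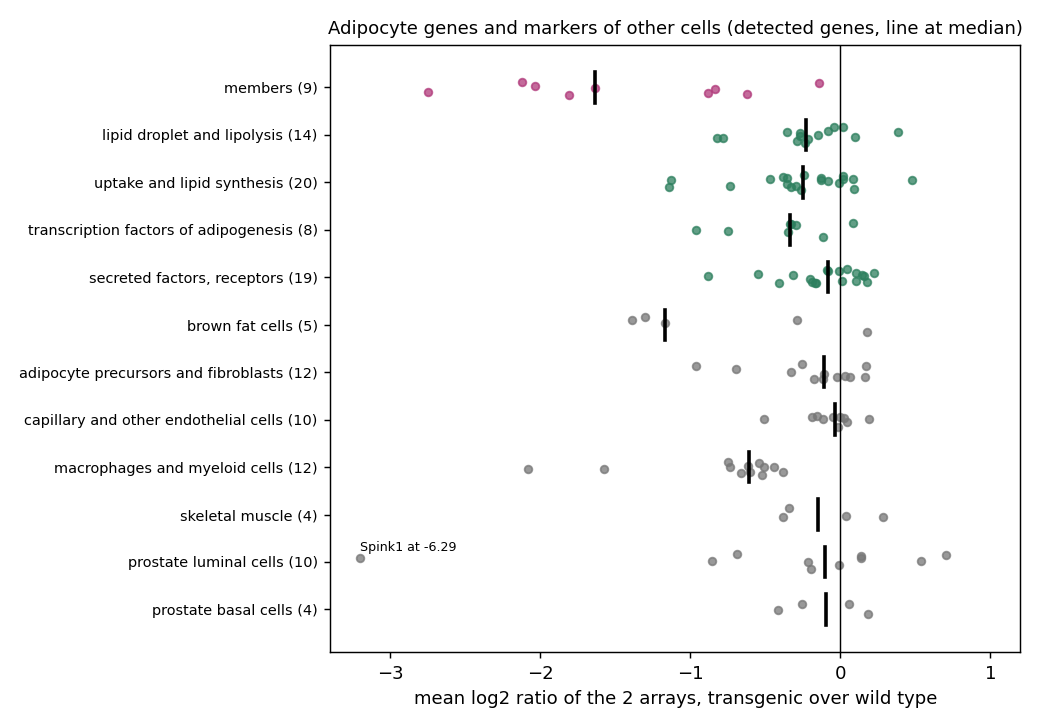
Mean log2 ratio of the 2 arrays for each detected gene of the members, of 4 lists of other white fat cell genes and of 7 marker lists of other cells (number detected in brackets), with a line at each median and Spink1 (−6.29) drawn at the left edge. Medians are −1.63 for the members, −1.17 for brown fat and −0.61 for myeloid markers, while those of the remaining lists lie between −0.34 and −0.04.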

How the data were processed

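Per the labels' protocols, 100 ng of dorsolateral prostate RNA per pool was labelled for 2-colour Agilent arrays. Per the file headers, the scanner files were made with Feature Extraction 11.0.1.1. Median pixel intensity of spot and local background was used as deposited, without normalization. The log10 ratio of processed Cy5 over Cy3 was also used as the authors' scanner files give it. The value table that the authors deposited is in log2 and matched this log10 ratio turned to transgenic over wild type (r = 1, slope 1 and median 0 for both arrays). The rule that chose its probes is, for the sources used here, not given. The array annotation cites another build than the promoter table.

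With limma 3.58.1 (R 4.3.3), background was corrected by normexp (offset 50) and loess was run within arrays, leaving out controls and flagged outliers (157 and 177 spots). No spot was saturated. Signals of each pool were further scaled by Aquantile. Spots of a probe were averaged, and a probe with several spots needed 50% of them well above background. For 245 probes with 10 spots each, the spots' SD had a median of 0.17 (array 1) and 0.23 (array 2) log2 units. Accessions without versions were matched to RefSeq (GRCm38.p6), which named 27816 of 41174 probes. A gene took its brightest detected probe and was called when 1.5-fold or more changed on both arrays. No p-values were computed. The calling was tested on simulated data. Alternatives were other backgrounds, offsets, scalings, filters, probe rules and single arrays. All members, the called list genes and the 2 largest of each marker list are named. The members and lists were chosen with earlier results of these data known. Tables came from Python 3.11.15 with pandas 2.3.3 and numpy 2.4.6, and figures from matplotlib 3.10.9.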

Additional observations from a re-analysis of the deposited data

How the results depend on the processing

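No member was called higher under any of the 12 alternatives. The 6 lower members became 8 with median centring, on array 1 alone and with the log ratios of the scanner software, 7 with an offset of 16, 6 on array 2 alone and 5 with the mean over probes. They became 3 in the deposited table and 2 with detection in both pools, where fewer genes are measured. The median of the members (−1.63) was −1.56 without background subtraction, −1.82 with an offset of 16, −2.40 with median centring, −2.30 with the log ratios of the scanner software, −2.27 for the authors' deposited values, −1.26 with detection in both pools and with undetected genes included, and −1.36 to −1.41 on single arrays. Car3 ranged from −1.02 on array 1 to −3.05 on array 2 and Cfd from −2.07 to −3.43. Lpl passed on array 1 alone (−1.36) and not on array 2 (−0.41).

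Of the other white fat cell genes, 3 lower became 1 without background subtraction and with detection in both pools, 12 with median centring, 11 with the log ratios of the scanner software, 11 to 13 on single arrays and 0 at 2-fold. The count higher was 1 for the log ratios of the scanner software, 1 for the authors' deposited values and 2 on each single array. Of all genes, those lower numbered 240 with an offset of 16, 554 with median centring, 627 with the log ratios of the scanner software, 76 with detection in both pools, 37 at 2-fold and 558 to 1569 on single arrays. Those higher numbered 149, 2 and 247 under the first 3 of these, 178 in the deposited table (of 6127 genes), 25 at 2-fold and 544 to 845 on single arrays. The cause of these shifts was not tested, except that single arrays ask for 1 array to pass. No paired analysis was possible because the arrays are 1 group that repeats the same pools. The transgenic signal of 5 detected members was not well above background on array 2, and their ratios there have no exact size.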
